A study of Mus musculus with 56 samples.

Results

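The transcripts described here encode the CCAAT/enhancer-binding proteins (C/EBPs) and the ATF and CHOP factors that pair with them. The 8 genes Cebpa, Cebpb, Cebpd, Cebpg, Ddit3, Atf4, Atf3 and Atf5 were taken by gene symbol from the 25939 genes of the table, and all 8 were measured in every library and passed the filter on low values. The samples were visceral adipose tissue (VAT) of female C57BL/6J mice aged 9 weeks, profiled as whole-tissue polyA RNA. After entrainment to a light and dark cycle on normal chow, mice had food only in the day (daytime-restricted feeding, DRF) or only in the night (nighttime-restricted feeding, NRF, the control regimen) for 7 days. Tissue was taken at zeitgeber times ZT0, ZT4, ZT8, ZT12, ZT16, ZT20 and ZT24, where ZT0 is lights-on and ZT12 lights-off, from 4 mice per regimen and time, which gave 14 groups and 56 libraries. Only females of 1 strain were studied, so nothing here bears on males.

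C/EBPs are basic leucine zipper (bZIP) transcription factors that bind DNA as dimers. In fat cell differentiation C/EBP beta and C/EBP delta act early and induce C/EBP alpha, which together with PPAR gamma keeps the adipocyte program on. ATF4 is the effector of the integrated stress response, in which phosphorylated eIF2 alpha slows general translation while ATF4 is translated, and ATF4 in turn drives amino acid synthesis and import genes together with Atf3, Ddit3 (CHOP) and Atf5. The amounts of ATF4, ATF5 and CHOP protein depend strongly on translation, which these transcript values do not show.

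The recovered depth was 30.87 to 40.78 M reads per library, with medians of 34.68 M under DRF and 35.53 M under NRF. Values are CPM, and tests are on log2(CPM + 1). The reads were divided by an effective library size that was also recovered from the deposited values, 31.79 to 47.3 M. This size is not the recovered depth, and for DRF ZT8 replicate 1 it was 43.11 M against 31.85 M reads. Scaling by the total of recovered reads was tried as an alternative. The 5 adipocyte markers summed to at least 14833 CPM in all libraries but 2. DRF ZT8 replicate 1 had 8387 CPM and DRF ZT0 replicate 4 had 12704 CPM. The measured genes of the uterine epithelium list, Epcam, Cdh1, Krt8 and Wfdc2, summed to 429 and 972 CPM in these libraries against at most 54.9 CPM elsewhere. Pax8 of that list was not found, and the source of this RNA was not tested. NRF ZT24 replicate 4 held 1539 CPM of liver markers against at most 75.2 CPM elsewhere. Where leaving these libraries out changed a member's call for rhythm, rhythm difference, change over time or difference at the same time, both values are given. For phase shifts and aligned pairs only counts are given, and for the gene lists not every count. In bulk tissue, fewer cells of a type and less RNA per cell cannot be told apart.

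All 8 genes are annotated on mm10 (GRCm38). Cebpa lies on chromosome 7 at 35119293 to 35121928 and Cebpg on the same chromosome at 35046422 to 35056573, on the opposite strand. Atf5 is also on chromosome 7, at 44812256 to 44816658. Cebpb is on chromosome 2 at 167688915 to 167690418, Cebpd on chromosome 16 at 15887286 to 15891031, Atf4 on chromosome 15 at 80255184 to 80257541, Atf3 on chromosome 1 at 191170296 to 191218039 and Ddit3 on chromosome 10 at 127290774 to 127296288. Of the 1504 exon bases of Cebpb, 312 also lie in exons of Tmem189 on the other strand, and of the 3746 exon bases of Cebpd, 562 lie in exons of Spidr on the other strand. The library kit named in the labels does not mark strand, so reads from these shared bases cannot be assigned to either gene, and the values of Cebpb and Cebpd carry that uncertainty. The same holds for smaller stretches of Atf5 (82 bases), Ddit3 (68) and Cebpa (51). Cebpg shares 73 exon bases with Gm44836 on its own strand and 4 with Gm45095 on the other strand. Of Ddit3's 1713 exon bases, 105 belong to a second annotated gene of the same name, which was not used here.

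Levels differed widely between family members. Per kilobase of exon, Cebpa was the most abundant at 354 ± 89.7 CPM per kb (SD, n = 56 libraries), followed by Atf5 at 67.8 ± 18.4, Atf4 at 47.1 ± 15.5 and Cebpb at 30.8 ± 10.8 CPM per kb. Cebpg followed at 16.6 ± 2.30 CPM per kb, and the 3 lowest were Ddit3 at 8.04 ± 1.96, Cebpd at 5.19 ± 2.85 and Atf3 at 4.14 ± 1.42 CPM per kb. Cebpa exceeded Atf5, and Cebpg exceeded Ddit3, in all 56 libraries. Atf5 exceeded Atf4 in 50 libraries, Atf4 exceeded Cebpb in 49, and Cebpb exceeded Cebpg in 50. Cebpd and Atf3 were not separated, since Cebpd was the higher in only 35 of 56 libraries. The lowest read count behind any value was 139 reads for Atf3, whereas Cebpa had at least 14766 reads in every library.

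The 250 bases upstream of the RefSeq start site (GRCm38.p6) are shown for 4 members, the only 2 that were rhythmic under both regimens, Cebpa and Atf4, and the pair called in the comparison at the same position in the food window, Atf3 and Ddit3. They are written in lower case with motif matches in capitals. They lie at chr7:35119043-35119292 on the plus strand for Cebpa, chr15:80254934-80255183 on the plus strand for Atf4, chr1:191183334-191183583 on the minus strand for Atf3 and chr10:127290543-127290792 on the plus strand for Ddit3. The Atf3 window lies inside the longer annotated Atf3 gene and shares 7 bases with its exons. The Ddit3 window shares 19 bases with an annotated Ddit3 exon and 175 with an exon of Gm4189 on the other strand.
Cebpa: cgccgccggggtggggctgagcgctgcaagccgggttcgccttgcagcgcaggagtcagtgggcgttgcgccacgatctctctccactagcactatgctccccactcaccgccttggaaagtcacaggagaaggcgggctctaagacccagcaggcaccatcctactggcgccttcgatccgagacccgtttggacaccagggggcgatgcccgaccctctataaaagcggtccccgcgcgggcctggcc
Atf4: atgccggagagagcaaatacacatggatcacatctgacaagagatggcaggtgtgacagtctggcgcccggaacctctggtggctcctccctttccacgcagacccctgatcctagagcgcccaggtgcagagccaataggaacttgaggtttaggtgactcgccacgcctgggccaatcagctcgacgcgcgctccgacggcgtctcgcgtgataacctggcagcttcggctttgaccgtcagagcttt
Atf3: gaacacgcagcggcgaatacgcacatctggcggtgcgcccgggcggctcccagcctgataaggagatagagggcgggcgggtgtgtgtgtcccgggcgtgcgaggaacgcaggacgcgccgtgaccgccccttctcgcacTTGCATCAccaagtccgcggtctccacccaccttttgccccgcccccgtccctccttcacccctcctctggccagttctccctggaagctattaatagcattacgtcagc
Ddit3: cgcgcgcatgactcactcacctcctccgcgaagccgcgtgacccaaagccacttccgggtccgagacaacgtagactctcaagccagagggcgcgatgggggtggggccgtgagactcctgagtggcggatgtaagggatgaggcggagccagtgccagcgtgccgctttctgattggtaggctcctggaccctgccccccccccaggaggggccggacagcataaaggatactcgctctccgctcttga
Both strands were searched for the C/EBP motif TTGCNNAA, the C/EBP-ATF response element TGATGNAA, the cyclic AMP response element TGACGTCA and the E-box CACGTG. Of the 8 upstream windows that RefSeq gave for 7 of the members (2 for Atf5), 1 held a match. The Atf3 window held the C/EBP-ATF response element on the strand opposite to the one printed, from 110 to 103 bases before the start. This motif was present in 3.45% of the 32851 windows of the same length. The C/EBP motif was present in 9.56%, the cyclic AMP response element in 1.55% and the E-box in 6.02% of all windows. These are descriptions of letters in a short window and say nothing of binding.

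To ask whether the factors kept a 24-h rhythm under either regimen, JTK_CYCLE and Lomb-Scargle p-values were combined for each gene and adjusted by the Benjamini-Hochberg procedure over the 17280 genes tested. Under NRF, 5 of 8 members were rhythmic (Cebpa, Cebpd, Cebpg, Atf4 and Atf5), where 40.0% of all genes tested were. Under DRF, 2 of 8 were rhythmic (Cebpa and Atf4), where 24.2% of all genes were. Without the DRF libraries ZT8 replicate 1 and ZT0 replicate 4, 4 of 8 were rhythmic under DRF, with Atf5 (adjusted p = 0.0129) and Cebpb (adjusted p = 0.00712) added, while the share of all genes rose to 30.1%. Without DRF ZT8 replicate 1 alone, these adjusted p-values were 0.0155 for Atf5 and 0.00939 for Cebpb. A rhythm past the threshold in 1 regimen only is not a difference, and the difference itself was tested with limma as the interaction of regimen with the cosine and sine terms. It passed for 6 of 8 members, all but Cebpb and Atf3, where 51.2% of all genes passed. Without DRF ZT8 replicate 1 it passed for 7, Cebpb being added at an adjusted p of 0.0418, while the share of all genes rose to 54.8%. With all libraries but only genes with a mean of at least 100 reads tested, it passed for 6 members, where 59.3% of those genes passed. The members rhythmic under DRF were then 2, where 29.1% of those genes were.

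**Figure D1:**
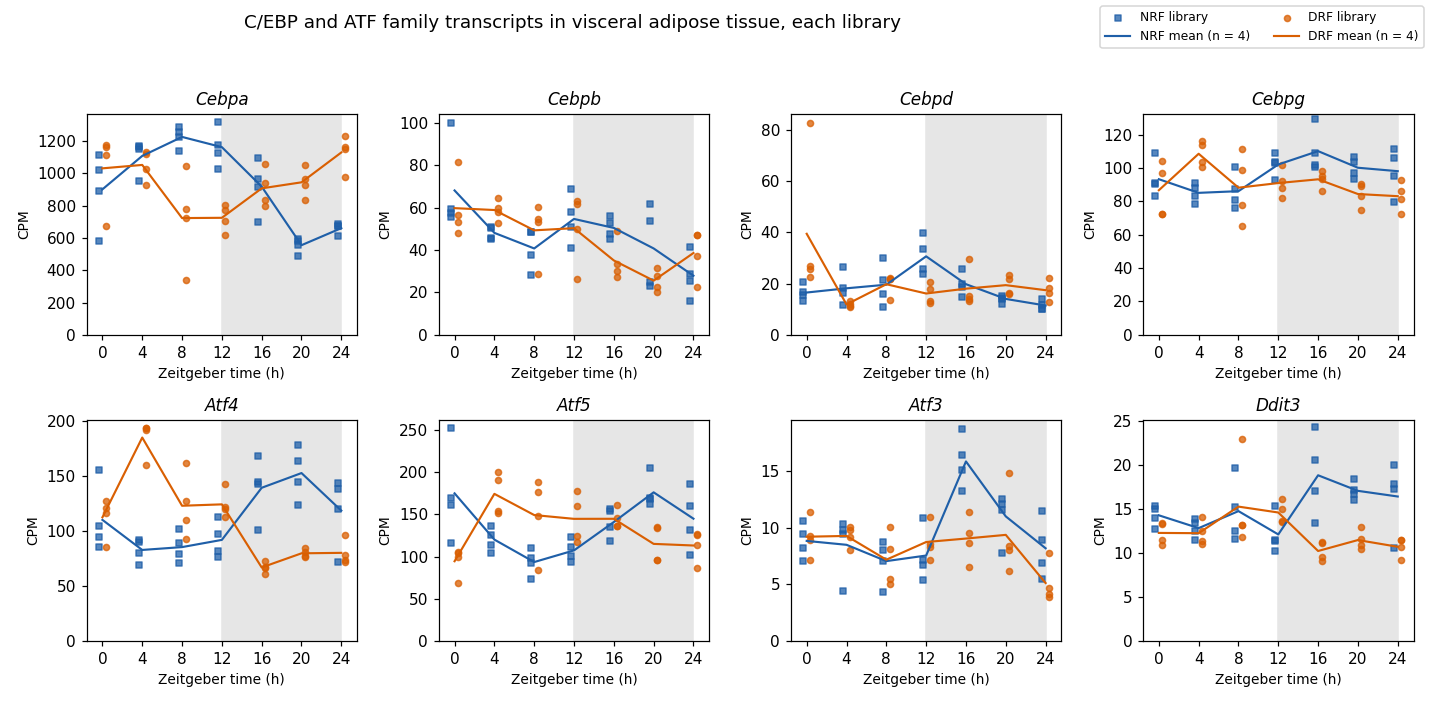
CPM of the 8 transcripts (y axes, from 0) against zeitgeber time in hours (x axes), with each library as a point, the mean of 4 mice as a line and the dark phase shaded. Atf4 was highest at ZT4 under DRF (185 CPM) and at ZT20 under NRF (153 CPM), while Cebpa was highest at ZT24 under DRF (1129.95 CPM) and at ZT8 under NRF (1226 CPM).

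Cebpa, the C/EBP of mature fat cells, was rhythmic under both regimens with opposite timing. At ZT8 it was 1136, 1224, 1255 and 1289 CPM under NRF and 342, 781, 1047 and 723 CPM under DRF. At ZT20 the order was turned, with 554, 491, 582 and 595 CPM under NRF and 832, 966, 1054 and 928 CPM under DRF. At neither time did the groups overlap. DRF minus NRF was -0.87 ± 0.19 (log2, SE; limma adjusted p = 0.000729) at ZT8 and -0.68 ± 0.19 (adjusted p = 0.00712) at ZT12. It was 0.76 ± 0.19 (adjusted p = 0.00300) at ZT20 and 0.77 ± 0.19 (adjusted p = 0.00386) at ZT24, while ZT0, ZT4 and ZT16 did not pass. The lowest value of DRF ZT8 was that of replicate 1. With both DRF libraries named above left out, Cebpa was rhythmic under DRF and the ZT8 difference was -0.54 (adjusted p = 0.00478). The fitted peak was at ZT 8.57 ± 0.57 h (SE) under NRF and 23.0 ± 1.04 h under DRF, a shift of 9.55 ± 1.187 h (CircaCompare-type Wald test, adjusted p = 2.06e-10). The fitted amplitude was 0.53 ± 0.08 log2 units under NRF and 0.31 ± 0.08 under DRF, a difference of -0.22 ± 0.11 that did not pass after adjustment (adjusted p = 0.330). The rhythm under DRF did not pass without the ZT24 libraries (adjusted p = 0.116), without replicate 2 (0.181) or replicate 3 (0.0891) of each group, or on the deposited values as they stand (0.404). The calls at ZT20 and ZT24 were lost without replicate 2, and that at ZT12 without replicate 4.

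Cebpa followed the adipocyte markers Adipoq, Plin1, Lep, Fabp4 and Cidec across libraries. Pearson's r with their summed CPM on the log2 scale was 0.72 over 56 libraries (Spearman's rho 0.63) and 0.63 without the 2 DRF libraries that stood apart (rho 0.59). It was 0.81 over the other 26 DRF libraries and 0.57 over the 28 NRF libraries. The points share library scaling and time of day, and the part of adipocyte content in the Cebpa values was not tested. The highest r of another member with this sum was 0.26, for Cebpg. The genes whose 14 group means were most like those of Cebpa were Nadk2 (r = 0.96), Kifap3 (0.95) and Ift52 (0.94).

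**Figure D2:**
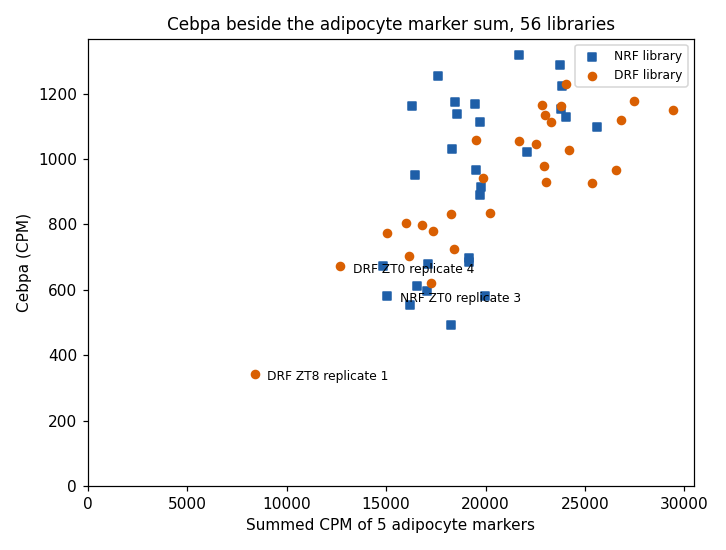
Cebpa in CPM (y axis) against the summed CPM of 5 adipocyte markers (x axis), with each of the 56 libraries as a point. DRF ZT8 replicate 1 had the lowest value of both (342 and 8387 CPM), and r was 0.72 over all libraries and 0.63 without the 2 DRF libraries that stood apart.

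Cebpb and Cebpd, the early C/EBPs that also drive acute-phase genes, had fewer differences past the threshold. Cebpb did not pass at any of the 7 times, with differences between -0.54 and 0.47 and adjusted p-values from 0.172 to 0.722. Its mean level difference was -0.08 (95% interval -0.35 to 0.19). Cebpb did vary over time in each regimen (limma F-test over the 7 times, adjusted p = 0.00460 under NRF and 0.00323 under DRF), under NRF only with the ZT24 libraries included (adjusted p = 0.0978 without them). Under NRF the ends of the day were far apart. Cebpb was 59.4, 57.2, 55.8 and 99.87 CPM at ZT0 and 25.3, 16.1, 28.8 and 41.4 CPM at ZT24, the same clock time in other mice, and the groups did not overlap. This contrast was made after the values were seen. ZT24 minus ZT0 was -1.29 ± 0.28 (limma adjusted p = 0.0189), 1 of only 49 genes (0.284%) called in that contrast under NRF. Under DRF it was -0.64 ± 0.28 (adjusted p = 0.377), and the difference between the regimens was not tested. Leaving out each replicate number in turn gave -1.41 to -1.13 with adjusted p-values of 0.0121 to 0.641, and the call was lost without replicate 1, 2 or 4. Tmem189, which shares exon bases with Cebpb, was 38.9 ± 7.12 CPM (SD, n = 4) at ZT0 and 35.6 ± 5.08 CPM at ZT24 under NRF. The nearest group mean profiles were those of Mapkapk5 (r = 0.90), Atn1 (0.90) and Srsf9 (0.87).

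Cebpd was rhythmic under NRF (adjusted p = 0.00520) and peaked at lights-off, where it was 23.8, 25.7, 33.3 and 39.7 CPM. Under DRF the ZT12 values were 12.6, 17.96, 20.7 and 13.3 CPM, all below those of NRF, and DRF minus NRF was -0.88 ± 0.27 (adjusted p = 0.0142). This call was lost without replicate 2 or replicate 4 of each group. At ZT0 Cebpd was 22.6, 26.8, 25.9 and 82.5 CPM under DRF and 16.7, 15.5, 13.4 and 20.6 CPM under NRF, a difference of 1.01 ± 0.27 (adjusted p = 0.00855). At ZT24, the same clock time in other mice, it was 0.55 ± 0.27 (adjusted p = 0.159) and the groups overlapped. The value of 82.5 CPM came from DRF ZT0 replicate 4, the library with the highest sum of uterine epithelium markers and the lowest sum of endothelium markers (372 CPM). Over the 56 libraries the endothelium sum had an r of -0.45 with Cebpd. That r includes DRF ZT0 replicate 4, which had the highest Cebpd value of all libraries, and r without it is not given. The part of endothelial cells was not tested. Without DRF ZT0 replicate 4 the ZT0 groups still did not overlap, but the difference was 0.59 (adjusted p = 0.107). The ZT0 call was also lost without replicate 2 of each group. The rhythm under NRF was lost without ZT24 and without replicate 2 or 3. Cebpd differed between regimens in its 24-h rhythm (adjusted p = 0.00459), also without these 2 DRF libraries. Sik1 (r = 0.89), Taf5 (0.88) and Plce1 (0.87) had the nearest group means.

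Cebpg, which has no activation domain of its own and pairs with ATF4, was the steadiest member, with group means between 83.1 and 110.1 CPM. At ZT4 it was 104, 100.5, 114 and 116 CPM under DRF and 83.2, 90.8, 87.9 and 78.4 CPM under NRF. The groups did not overlap and DRF minus NRF was 0.35 ± 0.12 (adjusted p = 0.0238). With scaling by the total of recovered reads this was 0.16 (adjusted p = 0.144), and the call was also lost without replicate 3 or 4. From ZT12 to ZT24 the differences were -0.25 to -0.17, none past the threshold. The rhythm passed under NRF (adjusted p = 0.0142, fitted peak at 16.97 ± 1.01 h) and the rhythm difference passed at an adjusted p of 0.0151. The former was lost without replicate 1, 2 or 4, and the latter without replicate 2, 3 or 4 and on the deposited values. Aldh4a1 (r = 0.93), Retreg3 (0.90) and Ldlrad3 (0.89) were nearest in group means.

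Atf4 showed the clearest reversal. At ZT4 it was 192, 161, 194 and 194 CPM under DRF and 79.7, 69.2, 92.4 and 90.3 CPM under NRF, a 2.23-fold higher mean. At ZT16 it was 60.6, 73.2, 67.5 and 66.7 CPM under DRF and 143, 145, 101 and 169 CPM under NRF, where NRF was 2.08-fold higher. The groups did not overlap at either time. DRF minus NRF was 1.16 ± 0.17 (adjusted p = 2.95e-06) at ZT4 and 0.50 ± 0.17 (adjusted p = 0.0278) at ZT8. It was -1.03 ± 0.17 (adjusted p = 5.18e-05) at ZT16, -0.92 ± 0.17 (adjusted p = 0.000111) at ZT20 and -0.52 ± 0.17 (adjusted p = 0.0314) at ZT24, while at ZT0, the same clock time in other mice, it was 0.05 (adjusted p = 0.879). The ZT24 call was lost without NRF ZT24 replicate 4, the library with liver markers (-0.43, adjusted p = 0.121), and without replicate 2, 3 or 4 of each group, and the ZT8 call without replicate 3 or 4 and on the deposited values as they stand (adjusted p = 0.0603). The groups overlapped at ZT8 and ZT24. Each group's peak fell in its food window, at a fitted 18.8 ± 0.65 h under NRF and 6.17 ± 0.50 h under DRF, a shift of 11.3 ± 0.82 h (adjusted p = 5.19e-18). The mean over the day differed by -0.03 (95% interval -0.19 to 0.13). Both rhythms, the rhythm difference and the differences at ZT4, ZT16 and ZT20 passed in all the alternatives run. Tatdn2, Zfp672 and Dusp4 (r = 0.95 each) were nearest in group means. At ZT4 3 of 4 adipose progenitor, 3 of 4 mesothelium and 3 of 4 macrophage markers were lower under DRF. All 3 of 3 red cell markers were higher there, where 14.8% of all genes were lower and 16.7% higher. The part of these cells in the ZT4 differences of Atf4, Cebpg and Atf5 was not tested.

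Of the 2743 genes rhythmic under both regimens, 97.0% had a phase shift past the threshold and 78.4% were shifted by at least 8 h, and both members in that class, Cebpa and Atf4, were in each of these groups. No member differed in amplitude between regimens (0 of 8, with 0 also at an unadjusted p under 0.05), where 2.88% of all genes did.

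Atf5, an ATF4 target that serves the mitochondrial unfolded protein response, was lower at ZT0 and ZT20 and higher at ZT4 and ZT8 under DRF. At ZT0 it was 104, 99.2, 106 and 68.8 CPM under DRF and 117, 162, 252 and 169 CPM under NRF, without overlap. DRF minus NRF was -0.85 ± 0.20 (adjusted p = 0.00207) at ZT0, -0.34 ± 0.20 (adjusted p = 0.244) at ZT24, the same clock time in other mice, and -0.62 ± 0.20 (adjusted p = 0.0181) at ZT20. The sign was opposite in the light, with 0.53 ± 0.20 (adjusted p = 0.0351) at ZT4 and 0.62 ± 0.20 (adjusted p = 0.0160) at ZT8. At ZT0 the lowest DRF value was that of replicate 4 and the highest NRF value that of replicate 3, and without each of them the difference was -0.70 (adjusted p = 0.0162) and -0.65 (adjusted p = 0.0253). The ZT4 call was lost with scaling by the total of recovered reads (0.35, adjusted p = 0.0737) and with no filter on low genes (adjusted p = 0.0517). Without replicate 2, 3 or 4 the calls at ZT4, ZT8 and ZT20 were each lost. On the deposited values as they stand, those at ZT8 (adjusted p = 0.0642) and ZT20 (0.0617) were lost too. The ZT8 groups overlapped. Over the 56 libraries the 2 pancreas markers measured, with a sum of 12.0 CPM in the median NRF and 22.0 CPM in the median DRF library, had an r of 0.57 with Atf5, and their part in its values was not tested. The rhythm peaked at a fitted 20.7 ± 0.72 h under NRF and the rhythm difference had an adjusted p of 2.63e-06. Cops8, Eif3j1 (r = 0.97 each) and Noa1 (0.96) had the nearest group means.

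Atf3, a stress-induced bZIP factor that often represses, had a sharp rise at ZT16 under NRF. There it was 16.4, 18.8, 15.1 and 13.2 CPM, after 7.19, 5.42, 10.8 and 6.74 CPM at ZT12. Under DRF at ZT16 it was 6.55, 9.55, 11.4 and 8.67 CPM, so that the 2 regimens did not overlap and NRF was 1.75-fold higher. DRF minus NRF was -0.76 ± 0.24 (adjusted p = 0.0211), a call lost without replicate 1, 2 or 4. The 2 neutrophil markers measured had a low sum that also did not overlap at ZT16, 0.39 to 1.04 CPM under NRF and 1.498 to 2.44 CPM under DRF, and r with Atf3 over the 56 libraries was -0.47. Their part in the Atf3 difference was not tested. No other time passed for Atf3. Neither its rhythm (adjusted p = 0.151 under NRF and 1 under DRF) nor its rhythm difference (adjusted p = 0.151) passed, while its change over the 7 times did (adjusted p = 0.00203 under NRF and 0.0370 under DRF). The change under DRF was lost without ZT24 (adjusted p = 0.661), with no filter on low genes (0.0550) and without replicate 1, 3 or 4. The rhythm under NRF passed with a replicate block (adjusted p = 0.0462) and by the limma F-test of the cosine and sine terms (0.00533). Zbtb21 (r = 0.87), Ccdc117 (0.86) and Gm43860 (0.85) were nearest in group means.

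Ddit3, which encodes the C/EBP partner CHOP, was the only member whose mean level differed in the reported fit. It was lower under DRF, with a mean difference of -0.24 ± 0.07 (adjusted p = 0.00348), with group means of 10.2 to 15.2 CPM under DRF and 12.1 to 18.8 CPM under NRF. That makes 1 of 8 members lower and 0 of 8 higher, where 16.1% and 17.2% of all genes were. With scaling by the total of recovered reads the Cebpg mean was lower too (-0.14, limma adjusted p = 0.00169). All 3 times past the threshold for Ddit3 were from ZT16 on. At ZT16 Ddit3 was 9.48, 11.1, 11.2 and 9.08 CPM under DRF and 20.5, 24.3, 13.4 and 17.04 CPM under NRF, and at ZT20 it was 10.9, 10.4, 11.5 and 12.9 against 17.1, 15.96, 16.7 and 18.4 CPM. The groups overlapped at neither time. DRF minus NRF was -0.79 ± 0.16 (adjusted p = 0.000423) at ZT16, -0.54 ± 0.16 (adjusted p = 0.0116) at ZT20 and -0.54 ± 0.16 (adjusted p = 0.0128) at ZT24. Without NRF ZT24 replicate 4 the ZT24 value was -0.44 (adjusted p = 0.0716), and the ZT20 and ZT24 calls were lost without replicate 2 or 4 of each group. From ZT0 to ZT12 the differences were -0.20 to 0.26 and none passed. The macrophage markers, 3 of 4 of which had a lower mean under DRF, summed to a median of 281 CPM under DRF and 346 CPM under NRF, and the adipose progenitor markers (3 of 4 lower) to 1484 and 2011 CPM. Of the mesothelium markers 3 of 4 were lower as well, while 3 of 3 red cell markers were higher under DRF. Over libraries the macrophage, progenitor and mesothelium sums had an r of 0.35, 0.23 and 0.21 with Ddit3, and the neutrophil sum, with medians of 1.80 CPM under DRF and 1.194 CPM under NRF, one of -0.36. The part of these cells in the Ddit3 difference was not tested. Mn1, Fyn (r = 0.93 each) and Rasgrp4 (0.92) had the nearest group means.

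**Figure D3:**
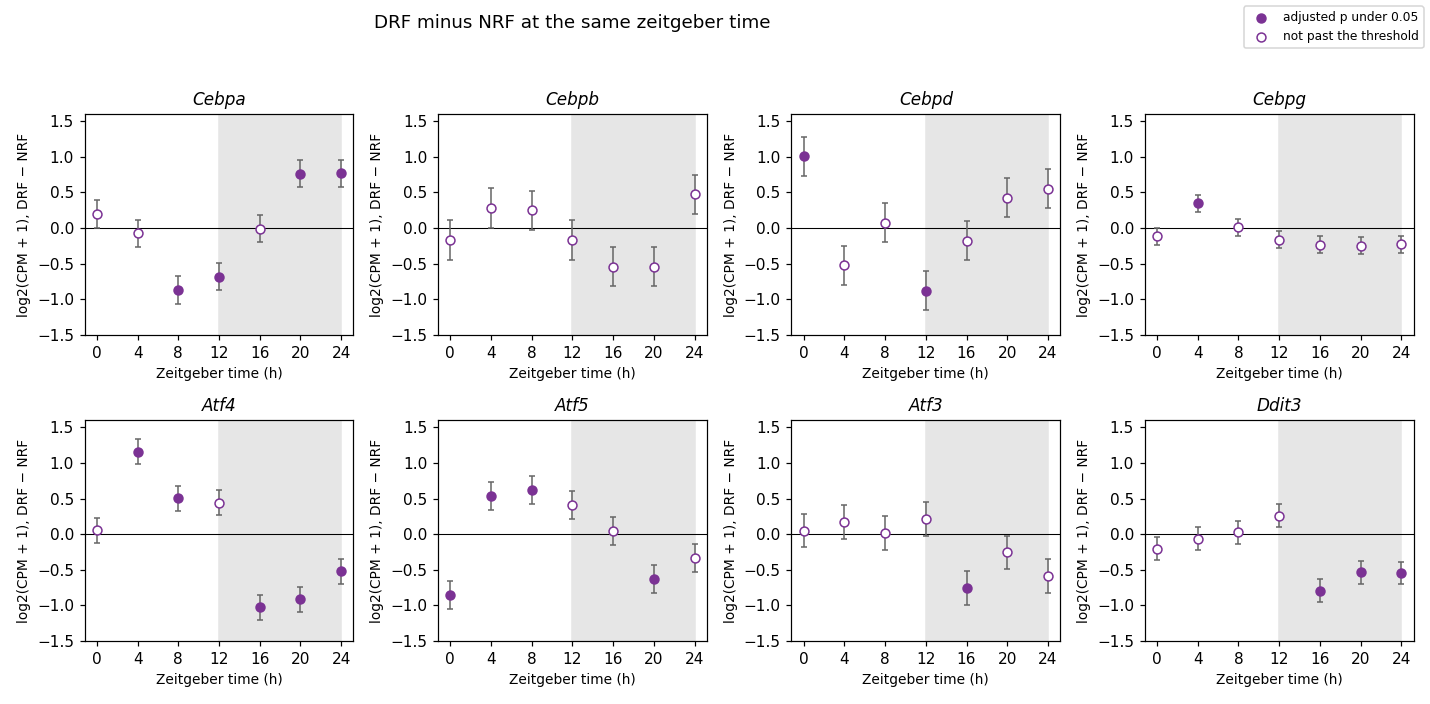
DRF minus NRF on the log2(CPM + 1) scale (y axes) at the same zeitgeber time in hours (x axes), with bars of 1 SE from the limma fit, filled points past an adjusted p of 0.05 and the dark phase shaded. Atf4 ran from 1.16 at ZT4 to -1.03 at ZT16, Cebpa from -0.87 at ZT8 to 0.77 at ZT24, and all the Cebpb points are open.

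Counted over members and times, 20 of 56 comparisons at the same clock time passed, 8 higher and 12 lower under DRF, where 22.2% of all gene and time pairs passed. Per time, the members called were 2 at ZT0, 3 at ZT4, 3 at ZT8, 2 at ZT12, 3 at ZT16, 4 at ZT20 and 3 at ZT24. The shares of all genes called were 16.7%, 31.4%, 25.8%, 25.2%, 16.5%, 21.1% and 18.6% at these times. In place of 20, the count was 9 without replicate 2, 8 without replicate 4 and 26 with scaling by the total of recovered reads. The shares of all pairs under these 3 settings are not given. Over time within a regimen, 7 of 8 members differed under NRF and 7 of 8 under DRF, Cebpg being the exception in both (adjusted p = 0.0817 and 0.0809), where 42.0% and 43.5% of all genes differed. Without DRF ZT8 replicate 1 Cebpg passed in both (adjusted p = 0.0415 and 0.0469), as it did with a replicate block (0.0314 and 0.0323). The Ddit3 change under DRF (adjusted p = 0.0446) was lost in 7 of 17 alternatives, among them the leaving out of each replicate number. Under NRF the Ddit3 call was lost without replicate 2 or 4 and that of Cebpd without replicate 2 or 3, so that leaving out 1 number gave 5 to 7 members. Under DRF the calls of Cebpa (without replicate 1 or 2), Cebpd and Atf5 (both without replicate 4) were lost.

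The same libraries were then compared at the same position in the food window, that is DRF against NRF 12 h away, with ZT0 and ZT24 averaged. Here 2 of 48 comparisons passed, where 12.0% of all gene and contrast pairs did. Both were at DRF ZT4 against NRF ZT16. Atf3 was 9.28 ± 0.90 CPM (SD, n = 4) under DRF and 15.9 ± 2.33 CPM under NRF, without overlap, a difference of -0.71 ± 0.24 (adjusted p = 0.0271). Ddit3 was 12.2 ± 1.41 and 18.8 ± 4.68 CPM with overlapping groups, a difference of -0.56 ± 0.16 (adjusted p = 0.0106). The Atf3 call was lost without replicate 2, 3 or 4 and the Ddit3 call without replicate 2. Of all genes, 21.7% passed in that contrast. Atf4 was 185 ± 16.5 CPM under DRF and 139.5 ± 27.9 CPM under NRF there, a difference of 0.43 ± 0.17 that did not pass (adjusted p = 0.0726). The aligned differences of Cebpa ran from -0.38 to 0.28 and those of Atf5 from -0.30 to 0.30, none past the threshold, which does not show the profiles to be alike. Without the 2 DRF libraries that stood apart 5 of 48 passed, where 16.6% of all gene and contrast pairs did. With scaling by the total of recovered reads 7 passed, where 12.4% of all pairs did.

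**Figure D4:**
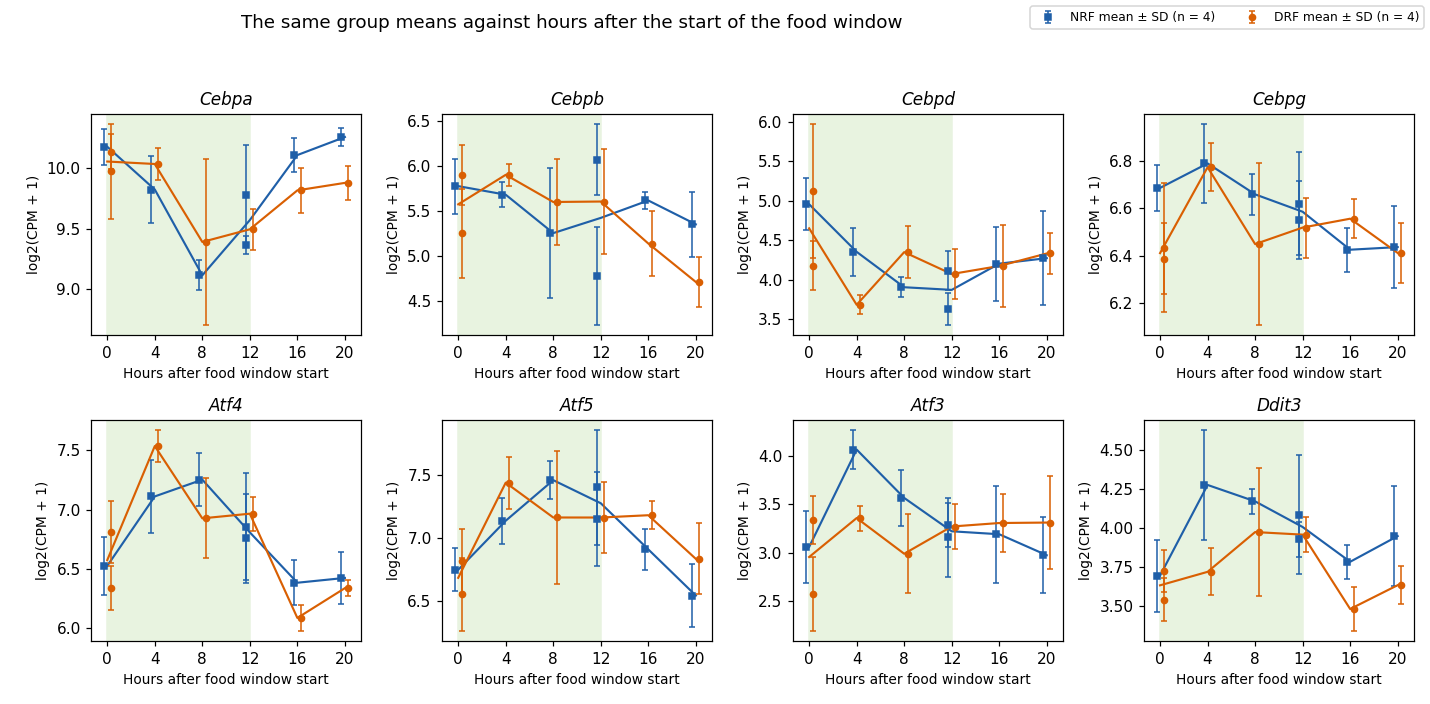
Group means ± SD (n = 4 mice) on the log2(CPM + 1) scale (y axes) against hours after the start of the food window (x axes), with the window shaded and lines through the mean of groups at the same hour. Atf3 and Ddit3 at 4 h are higher under NRF (aligned differences of -0.71 and -0.56), the only 2 of 48 contrasts past the threshold.

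Across the 14 group means, the strongest r was that of Cebpd with Atf5 (-0.70). It was -0.39 over the 56 libraries and 0.02 with the group means removed, and DRF ZT0 replicate 4 stood apart in both genes. Cebpa ran against Atf5 (-0.64), Ddit3 (-0.57) and Atf4 (-0.46), although with the group means removed its r was 0.34 with Atf5 and 0.25 with Ddit3. Cebpg ran with Atf4 (0.64), Atf3 (0.64) and Atf5 (0.56), and Atf4 with Ddit3 (0.61). Over the 56 libraries, with the group means removed, the pairs with the highest r were Cebpg with Atf5 (0.71), Atf4 with Ddit3 (0.63) and Cebpg with Ddit3 (0.60). These are descriptions, since the values of a library share its scaling and tissue makeup.

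The other genes of the pathways were read from lists of known partners and targets. Among 39 ATF4 and CHOP targets, among them genes of amino acid synthesis and import, transfer RNA charging and stress signalling, 30 differed between regimens in their 24-h rhythm (76.9%, where 51.2% of all genes did), and 13 of the 17 rhythmic in both were shifted by at least 8 h, as were 78.4% of all such genes. Of the means, 11 were higher and 4 lower under DRF (28.2% and 10.3%, where 17.2% and 16.1% of all genes were). The transfer RNA synthetases Iars (adjusted p of the rhythm difference 1.36e-13) and Tars (6.48e-12) peaked at a fitted 20.1 and 21.5 h under NRF and 9.78 and 9.94 h under DRF. The amino acid transporters Slc1a5 (1.42e-12) and Slc3a2 (4.26e-11) ran apart from each other, since Slc3a2 peaked at 20.2 h under NRF and Slc1a5 at 12.0 h. Of the means, the mitochondrial folate enzyme Mthfd2 was 0.69 ± 0.06 higher under DRF (adjusted p = 1.61e-12), Psph, the last enzyme of serine synthesis, 0.42 ± 0.12 higher (adjusted p = 0.00537), and Vldlr 0.40 ± 0.06 higher (adjusted p = 1.38e-06). At ZT4 15 of 39 were higher and 1 lower under DRF, where 16.7% and 14.8% of all genes were. These were 18 and 2 without the 2 DRF libraries that stood apart, where 19.3% and 18.4% of all genes were. At ZT16 3 were higher and 7 lower, where 8.17% and 8.32% of all genes were. Without the 2 DRF libraries that stood apart, 15 had a higher mean and 34 a rhythm difference, while the shares of all genes also rose, to 21.7% and 57.4%.

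Upstream of ATF4, 6 of 8 genes for the eIF2 alpha kinases, eIF2 alpha, its phosphatase subunits and the eIF2B subunit Eif2b5 differed in rhythm, where 51.2% of all genes did. Eif2s1, which encodes eIF2 alpha, had a mean 0.21 ± 0.04 higher under DRF (adjusted p = 0.000182), Eif2ak1 was 0.08 ± 0.03 higher (adjusted p = 0.0298) and Ppp1r15b 0.12 lower (-0.12 ± 0.04, adjusted p = 0.0360). Ppp1r15a (GADD34), itself an ATF4 and CHOP target, was 0.46 higher at ZT4 (adjusted p = 0.0383) and 0.51 lower at ZT16 under DRF (-0.51, adjusted p = 0.0383). The kinases Eif2ak4 (GCN2) and Eif2ak3 (PERK) differed in rhythm at adjusted p-values of 0.00289 and 0.00371, with means that did not pass.

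In the other arms of the unfolded protein response 6 of 12 genes differed in rhythm, near the 51.2% of all genes. The chaperone genes Hspa5 (adjusted p = 4.30e-09), Sdf2l1 (8.92e-08) and Dnajc3 (0.000670) and the sensor Atf6 (0.000460) were among them. Without the 2 DRF libraries that stood apart 5 of 12 differed in rhythm (41.7%, where 57.4% of all genes did). Of the means, 3 were higher and 2 lower under DRF (25% and 16.7%, where 17.2% and 16.1% of all genes were), and 3 and 3 without the 2 DRF libraries that stood apart (21.7% and 21.5% of all genes). Atf6 was 0.13 ± 0.04 higher (adjusted p = 0.00296), Xbp1 had a mean 0.37 lower (-0.37 ± 0.06, adjusted p = 7.64e-06), Pdia4 was 0.15 lower (-0.15, adjusted p = 0.0279) and Edem1 0.24 ± 0.05 higher under DRF (adjusted p = 4.64e-05).

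Of 17 genes of the adipogenic cascade around C/EBP, 11 differed in rhythm (64.7%, where 51.2% of all genes did). Of the means, 1 was higher and 3 were lower under DRF (5.88% and 17.6%, where 17.2% and 16.1% of all genes were). Without the 2 DRF libraries that stood apart 2 means were higher and 5 lower (21.7% and 21.5% of all genes), and the number lower at ZT16 went from 3 to 6, as the share of all genes went from 8.32% to 11.01%. Srebf1, the lipogenic regulator, was 1.35 higher at ZT4 (adjusted p = 0.000220) and 1.23 lower at ZT16 (-1.23, adjusted p = 0.00137). Klf15, Creb1 and Rxra followed with adjusted p-values of the rhythm difference of 1.73e-06, 3.28e-05 and 0.000486. Zfp423, a preadipocyte factor, had a mean 0.25 ± 0.08 higher (adjusted p = 0.00797), while Nr3c1, the glucocorticoid receptor, was 0.17 lower (-0.17, adjusted p = 0.00622) and Creb1 0.12 lower (-0.12, adjusted p = 0.00634).

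Among 17 adipocyte genes with known C/EBP alpha or PPAR gamma sites, 11 differed in rhythm (64.7%, where 51.2% of all genes did). Of the means, 5 were higher and 2 lower under DRF (29.4% and 11.8%, where 17.2% and 16.1% of all genes were). Pck1, the enzyme of glyceroneogenesis, and Lipe, the hormone-sensitive lipase, peaked at a fitted 8.02 and 9.38 h under NRF, near the 8.57 h of Cebpa, and at 21.2 and 21.01 h under DRF. Lep, the leptin gene, peaked at 19.8 h under NRF and 7.22 h under DRF, and Cidec at 12.2 and 23.3 h. Cfd (adipsin) had the largest mean difference of the list, 5150 CPM under DRF and 12601 CPM under NRF (-1.37 ± 0.11, adjusted p = 3.73e-14). Lep (0.60 ± 0.16, adjusted p = 0.00324) and Fasn (0.58 ± 0.23, adjusted p = 0.0479) were higher. Without the 2 DRF libraries that stood apart, 8 of these genes had a higher mean, while the share of all genes rose to 21.7%. Adipocyte markers are part of this tissue's own makeup, and all 5 markers summed above are in this list.

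Of 13 acute-phase and inflammatory genes with known C/EBP beta or delta sites that were tested, 3 differed in rhythm (23.1%, where 51.2% of all genes did), and 5 (38.5%, where 57.4% of all genes did) without the 2 DRF libraries that stood apart. Of the means, 3 were higher and 3 lower under DRF (23.1% each, where 17.2% and 16.1% of all genes were). Orm2 was 10.1 CPM under DRF and 4.01 CPM under NRF (1.14 ± 0.11, adjusted p = 8.25e-12) and Orm1 444 and 249.7 CPM (0.86 ± 0.10, adjusted p = 1.03e-09), while Cd14 was 0.39 lower (-0.39 ± 0.10, adjusted p = 0.00174). Of the macrophage markers 3 of 4 also had a lower mean under DRF, and their part in the Cd14 difference was not tested. Ccl2, a monocyte chemokine, and Il1r1, the interleukin 1 receptor, were among those that differed in rhythm, with adjusted p-values of 1.93e-06 and 7.41e-06.

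Of 26 other bZIP genes that partner or oppose the C/EBP and ATF factors, 15 differed in rhythm (57.7%, where 51.2% of all genes did). Of the means, 1 was higher and 6 were lower under DRF (3.85% and 23.1%, where 17.2% and 16.1% of all genes were), and 2 and 9 without the 2 DRF libraries that stood apart (21.7% and 21.5% of all genes). At ZT16 13 of 26 were lower under DRF and 0 higher, where 8.32% and 8.17% of all genes were, with a median of -0.34 against -0.01 over all genes. The circadian output factors Tef, Dbp and Hlf and their repressor Nfil3 led the rhythm differences, with adjusted p-values of 7.48e-17, 1.18e-16, 6.32e-11 and 1.45e-15. Nfil3 was 2.03 higher at ZT4 and 1.54 lower at ZT16 under DRF (-1.54), the same signs as Atf4. Tef (1.21 and -0.94), Dbp (0.91 and -1.51) and Hlf (1.81 and -1.51) had these signs at the same times as well. Maf (-0.40 ± 0.05, adjusted p = 6.36e-09), Hlf (-0.30 ± 0.10, adjusted p = 0.0122) and Batf3 (-0.28 ± 0.07, adjusted p = 0.00119) had the largest mean differences among the genes whose mean passed. The count at ZT16 was also 13 lower and 0 higher without the 2 DRF libraries that stood apart, where the shares of all genes were 11.01% and 11.44%.

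**Figure D5:**
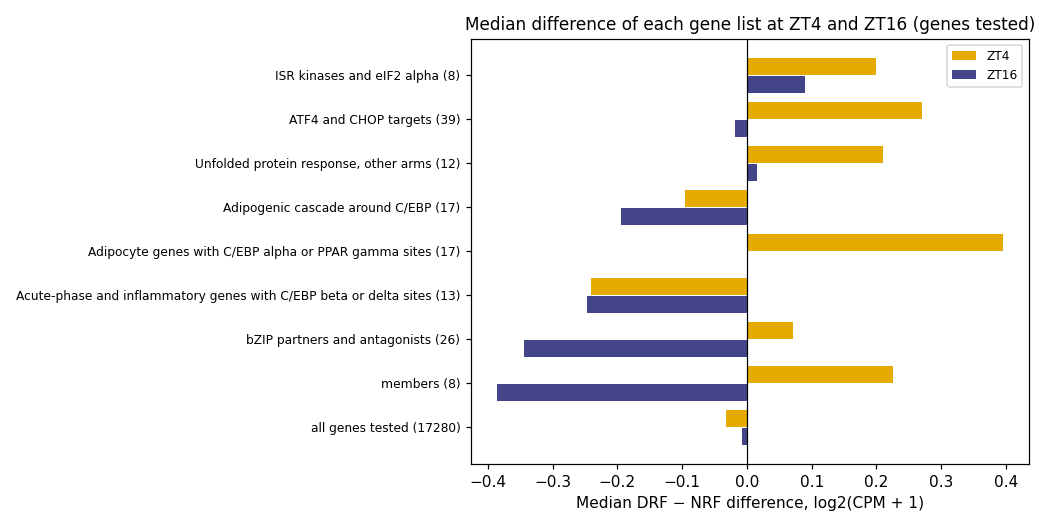
Median DRF minus NRF difference on the log2(CPM + 1) scale (x axis) at ZT4 and ZT16 for each gene list, the 8 members and all genes tested (y axis, number of genes in brackets). The members' medians were 0.23 at ZT4 and -0.39 at ZT16, and those of all 17280 genes -0.03 and -0.01.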

How the data were processed

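VAT libraries from 4 mice in each of 14 groups were sequenced by the authors, who, per the submitters' processing notes, used HISAT2 2.0.5, featureCounts 1.5.0-p3 and mm10. The deposited scores, named TPM, were found to be a multiple of log2(CPM + 1) divided by exon length. With GENCODE M21 lengths (lengths solved from the values for 895 other genes, 7 left out), whole reads came back within 0.02 reads for all but 2 of 1285275 values. The deposited values are not counts, and no count model was fitted to the recovered reads. Genes with a mean of at least 10 reads per library were tested (17280) with a pseudocount of 1, in R 4.3.3 with limma 3.58.1 (trend), and with JTK_CYCLE, Lomb-Scargle and CircaCompare-type fits rewritten after the published methods and tested on simulated data. Calls are Benjamini-Hochberg adjusted p-values under 0.05. The members and lists were chosen with earlier results of these data known. The named genes are the 8 members, from each list the 4 with the smallest adjusted p of the rhythm difference and the 3 largest mean differences among those called, and the 3 genes of mean CPM of at least 1 nearest to each member in group means. A gene named by this rule is not reported here. Replicates are numbered samples of a group, taken here as separate mice, which were group-housed. The alternatives tried were other filters, pseudocount and scalings, left-out libraries, times and replicate numbers, a replicate block and other tests.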

Additional observations from a re-analysis of the deposited data

Results flagged for a closer look

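In 12 cases over the 8 genes and 14 groups of 4 libraries (10.7%, where chance gives about 1 in 20) 1 library stood far from the others by Dixon's ratio, the gap to its neighbour as a share of the group's range on the log2 scale. In DRF ZT0, replicate 4 was lowest for Cebpa (0.9) and Atf5 (0.851) and highest for Cebpd (0.870), and in DRF ZT8, replicate 1 was lowest for Cebpb (0.831) and Cebpd (0.947). These are the 2 libraries with high sums of the uterine epithelium list, and the source of that RNA was not tested. The others were Cebpa in NRF ZT4 replicate 4 (lowest, 0.934) and NRF ZT24 replicate 3 (lowest, 0.833), Cebpb in NRF ZT0 replicate 4 (highest, 0.893), Atf4 in DRF ZT4 replicate 2 (lowest, 0.934), Atf3 in NRF ZT4 replicate 1 (lowest, 0.891) and NRF ZT20 replicate 4 (lowest, 0.834), and Ddit3 in DRF ZT8 replicate 3 (highest, 0.836).

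The 24-h rhythm differed between DRF and NRF by the limma interaction test for Cebpa (adjusted p = 1.03e-07), Cebpd (0.00459), Cebpg (0.0151), Atf4 (1.01e-09), Atf5 (2.63e-06) and Ddit3 (0.00124).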

How the results depend on the processing

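Up to 19 alternatives were run for each of 73 member results, and 1194 of 1310 values kept their direction and side of the threshold, 86 lost it, 22 gained it and 8 turned sign. The 8 were mean differences that did not pass in the reported fit or in these: Atf5 with scaling by total recovered reads (-0.0025), Atf4 without ZT24 (0.034) and, as the mean of the 7 time differences, Cebpa (0.015), Cebpd (0.068) and Atf5 (-0.029). The other 3 came from leaving out libraries, which gave mean differences of -0.12 to 0.0077 for Cebpa, -0.079 to 0.054 for Cebpd and -0.047 to 0.0012 for Atf4. Members rhythmic under DRF numbered 4 with scaling by total recovered reads (24.2% of all genes, as in the reported fit) and without DRF ZT8 replicate 1 (27.1%). They also numbered 4 with both DRF libraries left out (30.1%). They numbered 1 with the deposited values as they stand (21.3%) and without ZT24 (17.8%), and 5 by the limma F-test (share of all genes not given). Phase shifts numbered 3 in each of the first 3 of these settings and 1, 1 and 4 in the last 3. With scaling by total recovered reads 2 means differed (Ddit3 and Cebpg) and 7 aligned pairs passed (12.4% of all pairs). Without both DRF libraries 5 aligned pairs passed (16.6% of all pairs). Leaving out 1 replicate number gave 3 to 4 members rhythmic under NRF, 1 to 2 under DRF, 1 to 2 phase shifts, 8 to 19 time pairs, 0 to 2 aligned pairs and 3 to 5 members changing over time under DRF. Fewer samples entered these fits. The replicate block gave 4 aligned pairs (13.3% of all pairs), 21 time pairs and 6 members rhythmic under NRF (shares of all genes not given for the time pairs and the rhythm). Same-numbered libraries shared only a number (mean correlation of deviations 0.04, 17 of 56 libraries nearest to their own number). Other causes were not tested. Atf3 and Ddit3 had the fewest reads, with medians of 325 and 500 per library.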
